A study of Homo sapiens with 6 samples.

Results

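The enzymes that make and recycle nucleotides, together with enzymes of one-carbon metabolism that feed them, were followed as a set of 41 genes out of the 60623 measured. The members were found by gene symbol, and each symbol matched a single row of the expression data. They cover purine ring assembly (8 genes), the branch from IMP to AMP and GMP (4), purine salvage (2), pyrimidine synthesis (5), pyrimidine salvage and nucleotide kinases (5), deoxynucleotide supply (10) and folate and methionine steps (6). The remaining member, SAMD11, encodes a sterile alpha motif domain protein and is not known as an enzyme of these pathways. It is reported apart.

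RNA-seq compared 3 control libraries (genotype label WT, titles beginning with NC) with 3 SRSF10 knockdown libraries (titles beginning with SH, shSRSF10 in the series title), all from cells labelled Huh7, a line from a human liver cancer. The treatment label is NA for both groups, and no label says whether the controls carried a control hairpin, so effects of hairpin delivery and of lower SRSF10 cannot be told apart. Nothing in the labels says that the replicates are separate cultures or how many clones were used, so the p-values reflect the spread of these libraries alone, possibly a technical one. SRSF10 encodes a splicing regulator related to the SR proteins, and the comparison asks how lowering it changes the transcriptome.

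Purines are built stepwise on a ribose phosphate donor, PRPP, until the ring of IMP is closed, and IMP is then turned into AMP or GMP. Pyrimidines are built as a ring first and joined to PRPP afterwards, giving UMP and then CTP. Ribonucleotide reductase converts ribonucleotides to deoxynucleotides, thymidylate synthase adds the methyl group of thymine, and folate carries the single-carbon units that both purine assembly and thymidylate synthesis consume. Proliferating and tumour cells depend on these routes, several of which are targets of antimetabolite drugs, and many of the genes are known to be expressed with the cell cycle. Salvage enzymes rebuild nucleotides from free bases and nucleosides.

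Values are FPKM, fragments scaled by gene length and by all mapped fragments of the library, so levels can be compared between genes per length. Differences are knockdown minus control in mean log2(FPKM + 1), which understates changes of low genes. A gene was called higher or lower when its adjusted p was under 0.05 in limma, fitted to all 12191 genes with at least 1 FPKM in at least 3 libraries. The steps between low values put the depth at an estimated 12700000 to 14350000 fragments per library. SRSF10 itself was at 18.6, 19.5 and 19.8 FPKM in control libraries and 10.6, 10.8 and 10.6 FPKM in knockdown libraries. It was 44.8% lower in the knockdown, with a log2 difference of -0.80 (SE 0.038, limma adjusted p = 0.000166), and the exact two-sided permutation p was 0.1, the smallest that 3 against 3 libraries allow. Liver markers were scarce in all libraries. Of 13 liver genes checked, 9 stayed under 1 FPKM in every library, among them AFP and ALB, which Huh7 cells are known to secrete, and APOA2, TTR and GPC3 were listed at 0. In these genes the libraries go against the label of the line. The summed liver marker level was 26.1 to 26.3 FPKM in the controls and 26.7 to 27.3 FPKM in the knockdown. The 4 leukocyte markers summed to at most 0.306 FPKM. The 5 fibroblast markers summed to 4.08 to 5.13 FPKM in the controls and 9.105 to 10.2 FPKM in the knockdown, nearly all of it LUM, with COL1A1, COL1A2, DCN and PDGFRB under 1 FPKM in every library. The 3 endothelial markers summed to 4.62 to 5.81 and 6.28 to 7.33 FPKM, with VWF and CDH5 under 1 FPKM throughout. The part of these markers in the results below was not tested.

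Most of the set was well expressed. MAT2A, which makes the methyl donor S-adenosylmethionine, had the highest level, 147 ± 1.8 and 115 ± 0.70 FPKM in the 2 groups, controls first (mean ± SD of 3 libraries, as for the next genes). HPRT1, the salvage enzyme for hypoxanthine and guanine, was next in the controls at 72.4 ± 0.17 FPKM. IMPDH2, AHCY, RRM1 and ATIC followed between 53.6 and 55.7 FPKM, and their control values overlapped. At the low end stood the pyrimidine enzyme DHODH (2.08 ± 0.084 and 1.85 ± 0.15 FPKM), the mitochondrial thymidine kinase TK2 (1.53 ± 0.16 and 1.73 ± 0.073 FPKM) and the adenylosuccinate lyase ADSL (1.09 ± 0.19 and 1.15 ± 0.12 FPKM). ADSL rested on as few as 89 estimated fragments per library, and 18.9% of its exon bases overlap another gene on the same strand. How fragments were counted is not given, so its low level is uncertain. SAMD11 and the nucleoside diphosphate kinase NME2 did not reach 1 FPKM in 3 libraries and were not tested, which left 39 members.

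**Figure D1:**
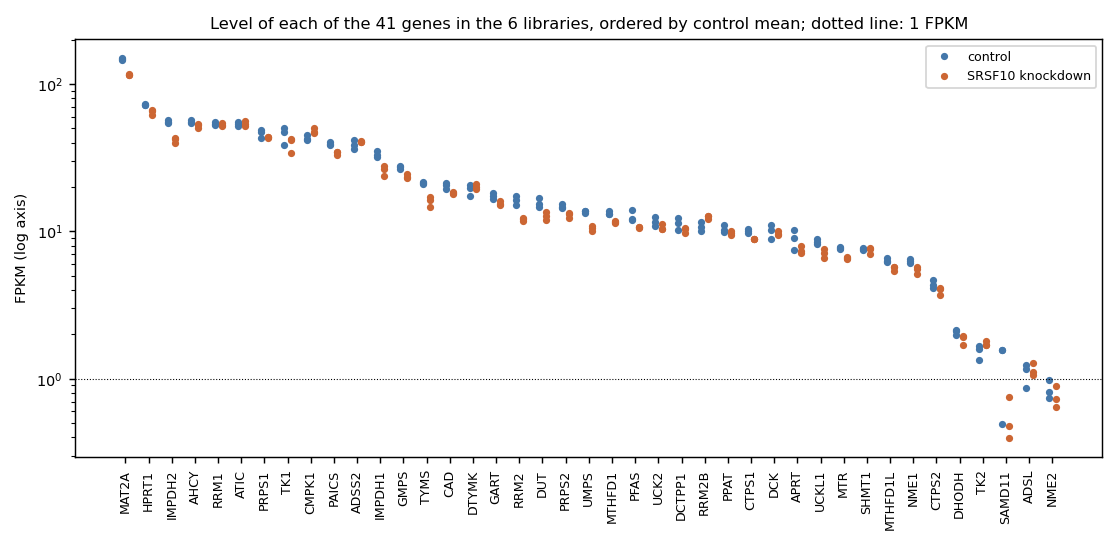
FPKM of each of the 41 genes (log axis) in the 3 control and 3 knockdown libraries, 1 point per library, ordered by control mean. MAT2A stands alone at the top, and SAMD11, ADSL and NME2 lie around the dotted line at 1 FPKM.

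As many of the tested genes fell as were not called, and the falls were small. Of the 39 tested members 19 fell, 1 rose and 19 were not called (limma, Benjamini-Hochberg adjusted p under 0.05). Over all 12191 tested genes 12.5% were lower and 12.6% were higher. The members that fell were 10.7% to 25.5% below the control mean, with a median of 14.3%. The median log2 difference over the 39 was -0.16, against -0.01 over all tested genes, and 32 of the 39 differences were negative. In 22 members all 3 knockdown values lay below all 3 control values, where 22.0% of all tested genes had that pattern. The opposite pattern was seen in CMPK1, RRM2B and TK2, 3 of 39, where 20.6% of all tested genes had it. In bulk RNA, fewer cells at a given stage of the cell cycle and less RNA per cell cannot be told apart. Gene-level values do not show isoforms.

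**Figure D2:**
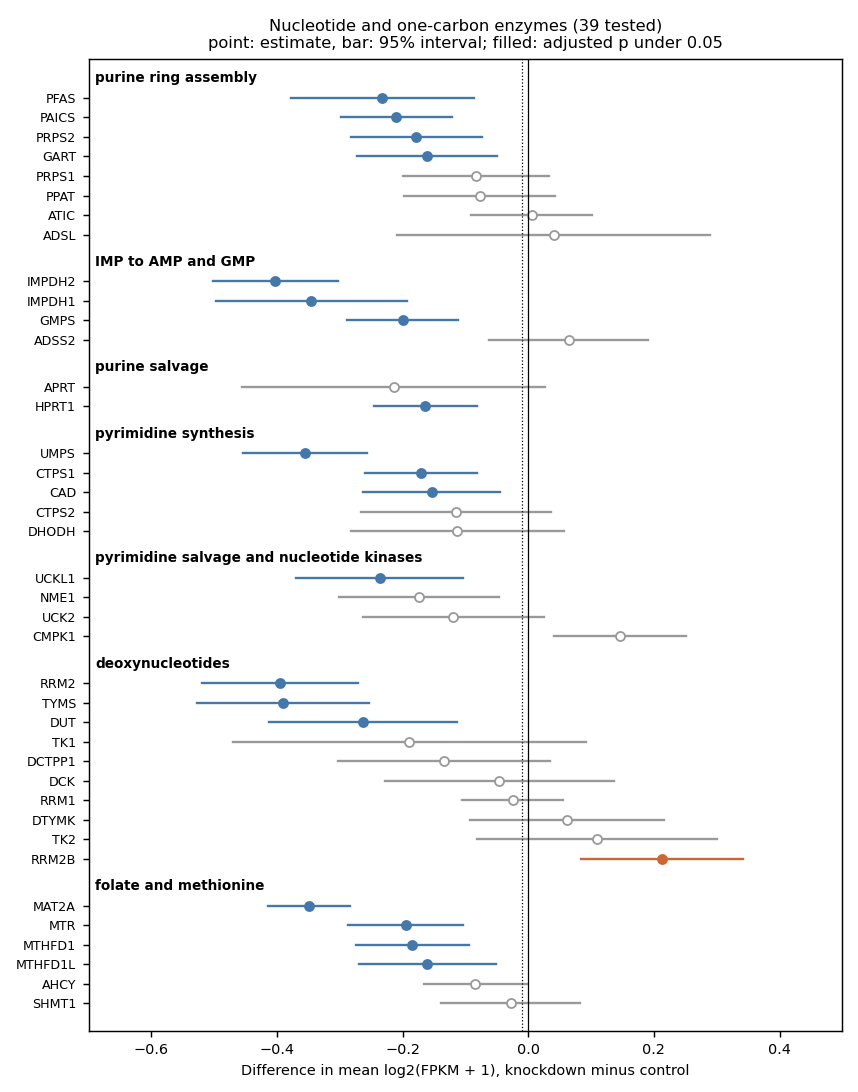
Difference in mean log2(FPKM + 1), knockdown minus control, with its 95% interval for the 39 tested members by pathway step. Filled points passed an adjusted p of 0.05, blue for lower and orange for higher. The dotted line is the median of all tested genes, and RRM2B is the only filled point to the right of 0.

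Purine ring assembly was partly lower: 4 of 8 members fell and 0 rose. PAICS, which carries out a carboxylation and the step after it in the middle of the route, was at 38.7, 40.7 and 39.2 FPKM in control libraries and 34.5, 34.8 and 32.8 FPKM in knockdown libraries. All knockdown values lay below all control values, and the log2 difference was -0.21 (SE 0.037, limma adjusted p = 0.00835). PFAS, the amidotransferase upstream of PAICS, was at 13.99, 12.2 and 11.9 FPKM in control libraries and 10.7, 10.7 and 10.5 FPKM in knockdown libraries, with control replicate 1 above the other controls. Its log2 difference was -0.23 (SE 0.062, limma adjusted p = 0.0337). GART, which catalyses several non-consecutive steps and uses formyl folate, was at 18.3, 17.5 and 16.5 FPKM in control libraries and 15.3, 15.1 and 15.98 FPKM in knockdown libraries, a log2 difference of -0.16 (SE 0.047, limma adjusted p = 0.0455). PRPS1 and PRPS2 both make PRPP. PRPS2 fell, from 14.7, 15.3 and 14.3 to 12.4, 13.2 and 13.2 FPKM, a log2 difference of -0.18 (SE 0.044, limma adjusted p = 0.0260). The more abundant PRPS1 was not called, at 47.3, 48.7 and 43.1 FPKM in control libraries and 43.2, 43.8 and 44.02 FPKM in knockdown libraries, and its groups overlapped. The PRPS1 difference of -0.08 had a 95% interval of -0.20 to 0.03, which includes the value for PRPS2. The ratio of PRPS1 to PRPS2 was nevertheless higher in every knockdown library, at 3.22, 3.18 and 3.01 in the controls and 3.48, 3.32 and 3.33 in the knockdown (exact two-sided permutation p = 0.1, and 0.133 adjusted over 8 pairs). PPAT, ATIC and ADSL were not called either. ATIC, which closes the purine ring, had a difference of 0.01 with an interval of -0.09 to 0.10, so a fall as large as that of PAICS lies outside it. On the log2(FPKM + 1) scale the interval for ADSL, -0.21 to 0.29, includes falls close to it. That scale understates changes at the low level of ADSL, so a fall of the same percent is not excluded. In fits that left out 1 library, the calls of GART and PRPS2 were lost without any library other than control replicate 3 (up to 0.137 and 0.0845, limma adjusted p) and that of PFAS without any knockdown library (up to 0.0998). PAICS kept its call.

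PPAT, the enzyme that commits PRPP to purines, and PAICS stand head to head on chromosome 4, and the stretch between them is shown because the neighbours were called differently. In RefSeq (GRCh38.p14) the PPAT start, at 56435615 on the minus strand, and a PAICS start, at 56435752 on the plus strand, are 137 bases apart. RefSeq lists 3 PAICS starts in all. The 125 bases from the PPAT start to the first annotated PAICS exon there are 76% G or C and hold none of the motif letters searched further on:
PPAT to PAICS, chr4:56435616-56435740, plus strand: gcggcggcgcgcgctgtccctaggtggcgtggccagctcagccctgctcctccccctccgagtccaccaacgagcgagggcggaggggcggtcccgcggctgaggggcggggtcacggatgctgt

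PPAT was at 9.83, 11.05 and 10.2 FPKM in control libraries and 10.02, 9.52 and 9.76 FPKM in knockdown libraries, with overlapping groups and a log2 difference of -0.08 (limma adjusted p = 0.314, 95% interval -0.20 to 0.04). The ratio of PAICS to PPAT within a library was 3.94, 3.68 and 3.83 in the controls and 3.44, 3.65 and 3.36 in the knockdown. All 3 knockdown ratios lay below all 3 control ratios. The two-sided exact permutation test gave p = 0.1, its lowest possible value, and 0.133 adjusted over 8 gene pairs. PAICS and PPAT were paired after their values were seen.

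All 3 members of the GMP branch fell, and ADSS2 on the AMP side was not called. IMPDH1 and IMPDH2 are alternative forms of the rate-limiting enzyme of guanine nucleotide synthesis, and GMPS completes GMP. IMPDH2 (chromosome 3, 49024325 to 49029408, minus strand, GENCODE 29 on GRCh38) was at 54.8, 57.2 and 54.9 FPKM in control libraries and 39.8, 43.3 and 42.5 FPKM in knockdown libraries, 24.8% lower, with a log2 difference of -0.40 (SE 0.042, limma adjusted p = 0.00128). IMPDH1 (chromosome 7) was at 32.8, 35.3 and 31.7 FPKM in control libraries and 23.9, 26.3 and 27.8 FPKM in knockdown libraries, a log2 difference of -0.35 (SE 0.064, limma adjusted p = 0.00970). Neither pair of groups overlapped. The ratio of IMPDH2 to IMPDH1 did not separate the groups, at 1.67, 1.62 and 1.73 in the controls and 1.66, 1.64 and 1.53 in the knockdown (exact two-sided permutation p = 0.4, and 0.457 adjusted over 8 pairs). GMPS (chromosome 3) was at 26.6, 27.6 and 27.3 FPKM in control libraries and 24.4, 22.9 and 23.3 FPKM in knockdown libraries, a log2 difference of -0.20 (SE 0.037, limma adjusted p = 0.00993). ADSS2, the entry to AMP, was at 36.1, 41.8 and 38.6 FPKM in control libraries and 40.6, 40.4 and 40.9 FPKM in knockdown libraries, with overlapping groups and a log2 difference of 0.06 (limma adjusted p = 0.431, 95% interval -0.06 to 0.19). Whether ADSS2 differs from the GMP enzymes was not tested.

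In purine salvage HPRT1 fell and APRT was not called. HPRT1 was at 72.3, 72.3 and 72.6 FPKM in control libraries and 62.1, 65.2 and 66.4 FPKM in knockdown libraries, a fall of 10.9% with a log2 difference of -0.16 (SE 0.035, limma adjusted p = 0.0152). The controls differed among themselves by less than the knockdown libraries did. APRT, which salvages adenine, was at 8.98, 10.2 and 7.48 FPKM in control libraries and 7.12, 7.93 and 7.41 FPKM in knockdown libraries. Its log2 difference was -0.21 with a 95% interval of -0.46 to 0.03, and control replicate 3 lay inside the knockdown range.

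Pyrimidine synthesis was lower at its first, last and CTP-forming steps: 3 of 5 members fell and 0 rose. UMPS, which attaches the ring to PRPP and forms UMP (chromosome 3, 124730366 to 124749273, plus strand), measured 13.4, 13.8 and 13.9 FPKM in control libraries and 10.9, 10.5 and 10.1 FPKM in knockdown libraries. It fell by 23.4%, a log2 difference of -0.36 (SE 0.041, limma adjusted p = 0.00189). CAD, which joins the opening reactions in a single protein, was at 21.4, 20.5 and 19.3 FPKM in control libraries and 18.2, 17.9 and 18.5 FPKM in knockdown libraries, a log2 difference of -0.15 (SE 0.046, limma adjusted p = 0.0488). CTPS1, which aminates UTP to CTP, was at 9.82, 10.3 and 10.1 FPKM in control libraries and 8.85, 8.84 and 8.83 FPKM in knockdown libraries, a log2 difference of -0.17 (SE 0.038, limma adjusted p = 0.0179). The knockdown values of CTPS1 were nearly equal and all lay below its controls. Its paralog CTPS2 was lower in level at 4.33, 4.096 and 4.68 FPKM in control libraries and 4.07, 4.104 and 3.69 FPKM in knockdown libraries and was not called (log2 difference -0.12, limma adjusted p = 0.237, 95% interval -0.27 to 0.04). The ratio of CTPS1 to CTPS2 overlapped between groups (exact two-sided permutation p = 0.6, also 0.6 adjusted over 8 pairs). DHODH, the mitochondrial step of the route, was at 2.15, 1.99 and 2.11 FPKM in control libraries and 1.92, 1.95 and 1.69 FPKM in knockdown libraries. Its groups did not overlap, yet it was not called (limma adjusted p = 0.298). The calls of CAD and CTPS1 did not hold in every fit without a library (limma adjusted p in brackets). CAD lost its call without any library other than control replicate 3 (up to 0.140) and CTPS1 without control replicate 2 or any knockdown library (up to 0.0631), while UMPS kept its own in each.

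Among pyrimidine salvage enzymes and nucleotide kinases 1 of 4 tested members fell and 0 rose. UCKL1, a uridine-cytidine kinase-like protein, was at 8.52, 8.84 and 8.23 FPKM in control libraries and 7.09, 6.62 and 7.57 FPKM in knockdown libraries, a log2 difference of -0.24 (SE 0.056, limma adjusted p = 0.0231), and lost its call without control replicate 1 or 2 or knockdown replicate 1 or 2 (up to 0.0702). UCK2, the main uridine-cytidine kinase of many tumour cells, was at 11.5, 12.6 and 10.9 FPKM in control libraries and 10.4, 10.3 and 11.2 FPKM in knockdown libraries with overlapping groups (log2 difference -0.12, limma adjusted p = 0.202). CMPK1, which phosphorylates UMP and CMP, was at 42.7, 41.8 and 45.4 FPKM in control libraries and 50.1, 47.1 and 46.7 FPKM in knockdown libraries. All its knockdown values were above all control values, but the adjusted p of 0.0535 in limma missed the threshold. It was called higher without control replicate 3 (0.0324) and with a filter of 5 FPKM (0.0386, limma adjusted p). NME1, a nucleoside diphosphate kinase, was at 6.09, 6.25 and 6.51 FPKM in control libraries and 5.53, 5.11 and 5.74 FPKM in knockdown libraries, with the opposite pattern and an adjusted p of 0.0558 in limma. NME2 was at 0.7398, 0.986 and 0.813 FPKM in control libraries and 0.733, 0.642 and 0.892 FPKM in knockdown libraries. Exons of NME1 and NME2 overlap those of the readthrough gene NME1-NME2 over 18.6% and 22.9% of their bases, and the paralogs are close copies, so their split is uncertain. SAMD11 was at 1.57, 1.56 and 0.495 FPKM in control libraries and 0.479, 0.757 and 0.394 FPKM in knockdown libraries, and control replicate 3 lay among the knockdown libraries.

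**Figure D3:**
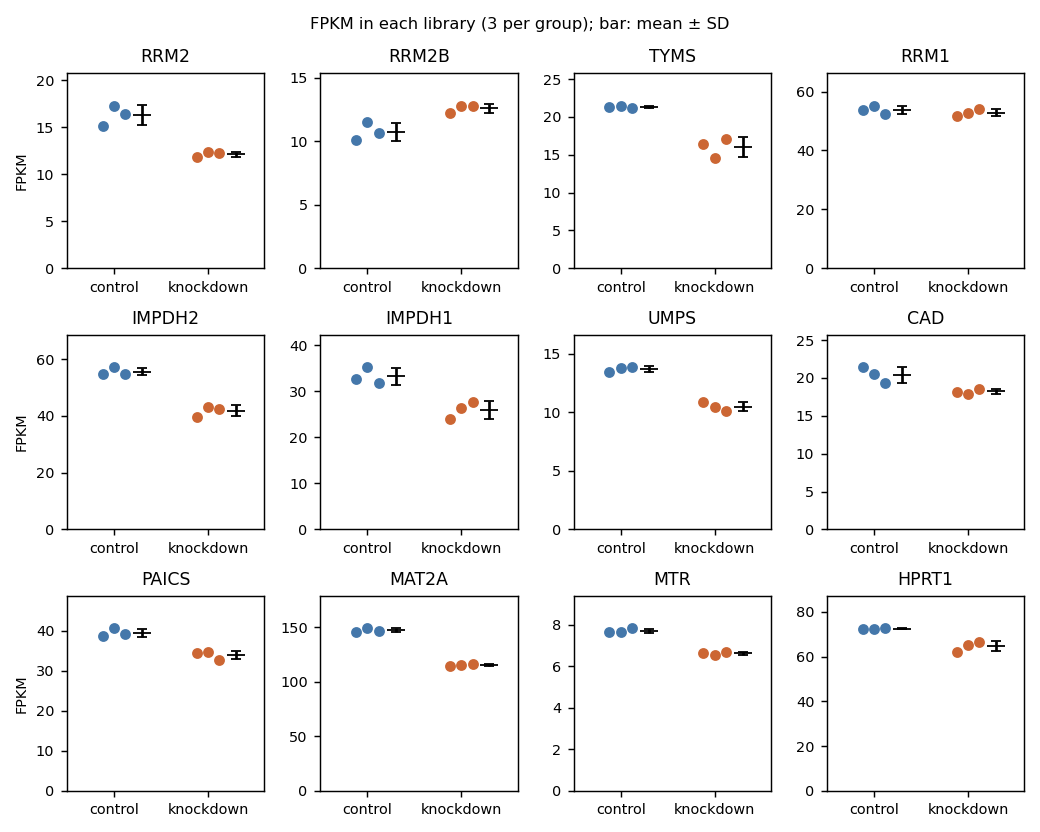
FPKM of 12 members in each library, with axes from 0. Points are libraries and bars are mean ± SD of 3. RRM2B is higher in the knockdown, RRM1 overlaps between groups, and the knockdown points of the other 10 genes lie below all control points.

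In deoxynucleotide supply the small subunits of ribonucleotide reductase went opposite ways. RRM1 encodes the large catalytic subunit, RRM2 the small subunit made in S phase, and RRM2B a small subunit induced by p53 that serves cells outside S phase. RRM2 (chromosome 2) was at 15.2, 17.3 and 16.4 FPKM in control libraries and 11.8, 12.3 and 12.2 FPKM in knockdown libraries. It fell by 25.5%, the largest fall in percent of the members called, with a log2 difference of -0.40 (SE 0.052, limma adjusted p = 0.00305). RRM2B (chromosome 8) was at 10.1, 11.5 and 10.6 FPKM in control libraries and 12.2, 12.8 and 12.8 FPKM in knockdown libraries. It was 17.2% higher, with a log2 difference of 0.21 (SE 0.054, limma adjusted p = 0.0294), and was the only member called higher. That call was lost without any library other than control replicate 2 (up to 0.0927), while all 3 knockdown values lay above all 3 controls. RRM1 was at 53.7, 55.2 and 52.6 FPKM in control libraries and 51.8, 52.9 and 53.99 FPKM in knockdown libraries, with overlapping groups and a log2 difference of -0.03 (limma adjusted p = 0.637, 95% interval -0.11 to 0.06).

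The ratio of the small subunits did not overlap between the groups. The ratio of RRM2 to RRM2B was 1.51, 1.502 and 1.54 in the controls and 0.968, 0.965 and 0.957 in the knockdown. In FPKM RRM2 was thus the higher in every control and RRM2B, by a small margin, in every knockdown library. The annotation that set the gene lengths is not given, so which of them is more abundant in the knockdown is uncertain. The ratio of RRM2 to RRM1 was 0.283, 0.313 and 0.311 in the controls and 0.228, 0.234 and 0.226 in the knockdown. For each ratio the exact permutation p (two-sided) was 0.1, as low as this test can go, and 0.133 adjusted over the 8 pairs. RRM2 and RRM1 were paired after their values were seen. No overlap was common among the pairs compared, with 6 of the 8 ratios separating the groups. How often ratios of other gene pairs separate them was not computed. The ratio of TK1 to TK2 was 28.4, 31.7 and 28.4 in the controls and 18.9, 25.2 and 24.7 in the knockdown, and that of UCK2 to UCKL1 was 1.35, 1.43 and 1.33 in the controls and 1.47, 1.56 and 1.48 in the knockdown, each with an exact permutation p of 0.1. Control replicate 1 had the lowest control value of both RRM2 and RRM2B. About 20.2% of RRM2 exon bases overlap a non-coding gene on the same strand.

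**Figure D4:**
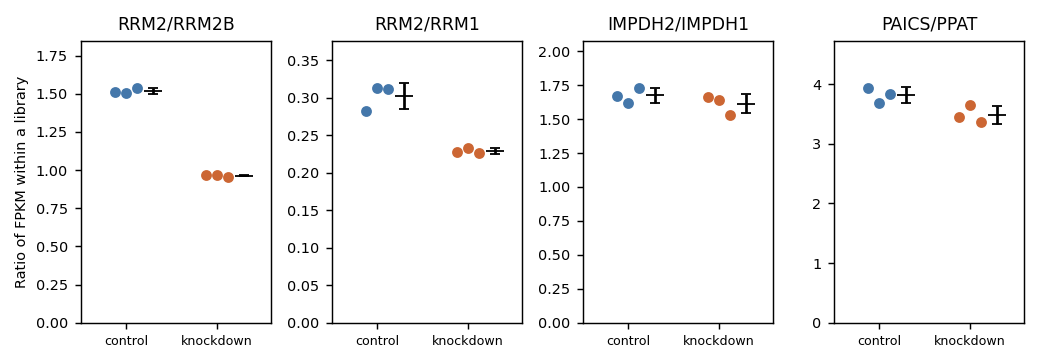
Ratio of FPKM of a gene pair within each library, with axes from 0. Points are libraries and bars are mean ± SD of 3. RRM2/RRM2B is about 1.5 in the controls and under 1 in the knockdown, while IMPDH2/IMPDH1 overlaps between groups.

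TYMS and DUT, the enzymes on either side of dUMP, fell as well. TYMS, thymidylate synthase (chromosome 18, 657604 to 673578, plus strand), measured 21.3, 21.5 and 21.1 FPKM in control libraries and 16.4, 14.6 and 17.1 FPKM in knockdown libraries, 24.7% lower with a log2 difference of -0.39 (SE 0.058, limma adjusted p = 0.00437). The control values were nearly equal and the knockdown values more spread. TYMS shares 46.6% of its exon bases with genes on the other strand, mostly ENOSF1. ENOSF1 was at 4.86, 5.14 and 4.84 FPKM in control libraries and 4.83, 5.31 and 4.997 FPKM in knockdown libraries and was not called (log2 difference 0.02). DUT, which hydrolyses dUTP and supplies dUMP to TYMS, was at 15.3, 14.6 and 16.8 FPKM in control libraries and 12.03, 13.5 and 12.8 FPKM in knockdown libraries, a log2 difference of -0.26 (SE 0.063, limma adjusted p = 0.0239), and lost its call without control replicate 1 or knockdown replicate 1 or 3 (up to 0.0738). TK1, the S-phase thymidine kinase, varied widely within both groups, at 47.3, 50.1 and 38.3 FPKM in control libraries and 34.2, 42.7 and 41.5 FPKM in knockdown libraries, and was not called (log2 difference -0.19, 95% interval -0.47 to 0.09). Its mitochondrial counterpart TK2 was at 1.67, 1.58 and 1.35 FPKM in control libraries and 1.81, 1.69 and 1.68 FPKM in knockdown libraries, with no overlap and an adjusted p of 0.370 in limma. The thymidylate kinase DTYMK, the deoxycytidine kinase DCK and the dCTP pyrophosphatase DCTPP1 were not called, with log2 differences of 0.06, -0.05 and -0.13. In all, 3 of 10 deoxynucleotide genes fell and 1 rose.

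Folate and methionine steps were lower in 4 of 6 members, and 0 rose. MAT2A (chromosome 2, 85539165 to 85545280, plus strand) measured 146, 149 and 147 FPKM in control libraries and 115, 115 and 116 FPKM in knockdown libraries, 21.6% lower with a log2 difference of -0.35 (SE 0.028, limma adjusted p = 0.000611), the smallest adjusted p of the set. The knockdown values were all below the controls and close to each other. GGCX, on the other strand, overlaps 12.4% of MAT2A exon bases and was higher in the knockdown by 0.31 (SE 0.055, limma adjusted p = 0.00836) on the log2 scale. MTR, methionine synthase, was at 7.65, 7.66 and 7.82 FPKM in control libraries and 6.63, 6.52 and 6.68 FPKM in knockdown libraries, a log2 difference of -0.20 (SE 0.039, limma adjusted p = 0.0123). MTHFD1, the cytosolic enzyme that interconverts folate single-carbon units, was at 13.8, 13.1 and 13.2 FPKM in control libraries and 11.7, 11.6 and 11.5 FPKM in knockdown libraries, a log2 difference of -0.18 (SE 0.038, limma adjusted p = 0.0137). MTHFD1L, which releases formate from mitochondria, was at 6.23, 6.595 and 6.28 FPKM in control libraries and 5.69, 5.69 and 5.39 FPKM in knockdown libraries, a log2 difference of -0.16 (SE 0.046, limma adjusted p = 0.0430). AHCY, which hydrolyses S-adenosylhomocysteine, was at 56.7, 55.02 and 54.8 FPKM in control libraries and 53.04, 50.6 and 53.3 FPKM in knockdown libraries. Its groups did not overlap, but it was not called (log2 difference -0.08, limma adjusted p = 0.124). SHMT1, the cytosolic serine hydroxymethyltransferase, overlapped between groups, and its difference of -0.03 had a 95% interval of -0.14 to 0.08. In fits that left out 1 library MAT2A kept its call. MTR lost it without knockdown replicate 2 (0.0511), MTHFD1 without knockdown replicate 2 or 3 (up to 0.0550) and MTHFD1L without any library (up to 0.134), all limma adjusted p.

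Other genes of the same pathways were called about as often as genes in general. In a list of 78 further genes 52 were tested, of which 7 fell (13.5%) and 9 rose (17.3%), near the 12.5% and 12.6% of all tested genes. Their median log2 difference was 0.01. For 1 of the 52 no control library reached 1 FPKM, so that gene, UPB1, passed the filter through the knockdown alone. Whether the synthesis enzymes and these genes differ as sets was not tested.

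Pyrimidine breakdown and nucleoside salvage genes were among those that rose: 5 of 14 tested other pyrimidine genes were higher and 2 lower. The 5 include UPB1, and over all tested genes 12.6% were higher and 12.5% lower. CDA, which deaminates cytidine and deoxycytidine, was at 1.36, 1.15 and 1.8 FPKM in control libraries and 3.74, 2.87 and 5.54 FPKM in knockdown libraries, a log2 difference of 1.03 (SE 0.20, limma adjusted p = 0.0109) on as few as 14 estimated fragments per library. DPYD, which begins uracil and thymine breakdown, was at 1.84, 2.17 and 2.101 FPKM in control libraries and 3.16, 3.904 and 3.01 FPKM in knockdown libraries, a log2 difference of 0.52 (SE 0.094, limma adjusted p = 0.00907). UPB1, which ends that route, was at 0.717, 0.892 and 0.793 FPKM in control libraries and 1.22, 1.23 and 1.36 FPKM in knockdown libraries. It was counted as higher, but it entered the test only because its knockdown values passed the filter, so its test supports nothing. DPYS, the enzyme between them, was under 0.1 FPKM in every library. The uridine phosphorylase UPP1 was at 9.596, 11.9 and 11.3 FPKM in control libraries and 14.2, 12.7 and 14 FPKM in knockdown libraries, and the nucleoside transporter SLC29A2 at 4.65, 5.12 and 5.08 FPKM in control libraries and 6.06, 5.43 and 6.27 FPKM in knockdown libraries. Both were called higher (limma adjusted p = 0.0401 and 0.0473). DPYS, UPP1 and SLC29A2 are named here after their values were seen. The nucleoside transporter SLC29A1 had a log2 difference of -0.23 (SE 0.065, limma adjusted p = 0.0430), and the kinase family member NME6 on chromosome 3 of -0.27 (SE 0.052, limma adjusted p = 0.0117), both lower. In fits without 1 library CDA, DPYD and NME6 kept their calls where they were tested. The remaining 3 besides UPB1 lost it (limma adjusted p in brackets), UPP1 without any library other than control replicate 2 (up to 0.115), SLC29A2 without any library other than knockdown replicate 2 (up to 0.143) and SLC29A1 without control replicate 1 or 2 or knockdown replicate 2 or 3 (up to 0.128). SLC29A2 also lost it with median-of-ratios scaling, and SLC29A2 and SLC29A1 on rescaling without mitochondrially encoded genes. All 3 lost it with no filter and without the mean trend, and UPP1 and SLC29A2 also with the replicate number as a block.

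Among other folate genes 3 of 12 tested fell and 2 rose. FPGS, which adds glutamates that retain folate in cells, was at 17.7, 16.1 and 17.8 FPKM in control libraries and 15.02, 14.9 and 13.6 FPKM in knockdown libraries and fell, while GGH, which removes those glutamates, was at 22.99, 23.2 and 23.1 FPKM in control libraries and 28.1, 24.5 and 26.8 FPKM in knockdown libraries and rose (limma adjusted p = 0.0278 and 0.0404). MTFMT, which formylates the mitochondrial initiator tRNA, was at 5.15, 5.29 and 5.36 FPKM in control libraries and 3.85, 3.94 and 3.26 FPKM in knockdown libraries, a log2 difference of -0.42 (SE 0.068, limma adjusted p = 0.00578). BHMT2, a homocysteine methyltransferase, was at 12.2, 12.95 and 11.6 FPKM in control libraries and 14.03, 14.9 and 15.5 FPKM in knockdown libraries and rose (limma adjusted p = 0.0167). SHMT2, the mitochondrial serine hydroxymethyltransferase, was at 32.2, 30.5 and 29.3 FPKM in control libraries and 32.7, 35.3 and 34.6 FPKM in knockdown libraries and missed the threshold (limma adjusted p = 0.0563). MTHFD2 was listed at 0 in every library, and no difference can be given for it. It shares 33.2% of its exon bases with other genes, and the counting is not given, so whether it was silent is uncertain. SHMT2 and MTHFD2 are named after their values were seen. MTFMT kept its call in each fit without a library. FPGS lost it without any library other than control replicate 2 (up to 0.0827), GGH without any library other than knockdown replicate 2 (up to 0.118) and BHMT2 without knockdown replicate 2 or 3 (up to 0.0603), all limma adjusted p. GGH also lost its call on rescaling without mitochondrially encoded genes, without the mean trend and with no filter, and FPGS with no filter. Both lost it with the replicate number as a block.

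In serine and glycine supply 1 of 5 tested genes rose and 0 fell. PSPH, the last enzyme of serine synthesis, was at 17.4, 17.6 and 16.4 FPKM in control libraries and 22.1, 21.1 and 22.1 FPKM in knockdown libraries, a log2 difference of 0.33 (SE 0.041, limma adjusted p = 0.00254). Among 21 tested other purine genes 2 fell and 1 rose. PRPSAP2, which associates with PRPP synthetase, was at 6.96, 6.55 and 6.66 FPKM in control libraries and 4.99, 4.996 and 4.66 FPKM in knockdown libraries, a log2 difference of -0.39 (SE 0.048, limma adjusted p = 0.00233). GMPR2, which returns GMP to IMP, was at 7.85, 7.56 and 8.05 FPKM in control libraries and 6.04, 6.7 and 6.65 FPKM in knockdown libraries and fell (limma adjusted p = 0.0165). The guanylate kinase GUK1 was at 11.1, 10.7 and 10.98 FPKM in control libraries and 12.8, 12.4 and 12.6 FPKM in knockdown libraries and rose (limma adjusted p = 0.0107). The call of GMPR2 was lost without control replicate 1 (0.0502), and PSPH, PRPSAP2 and GUK1 kept theirs in each fit without a library.

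**Figure D5:**
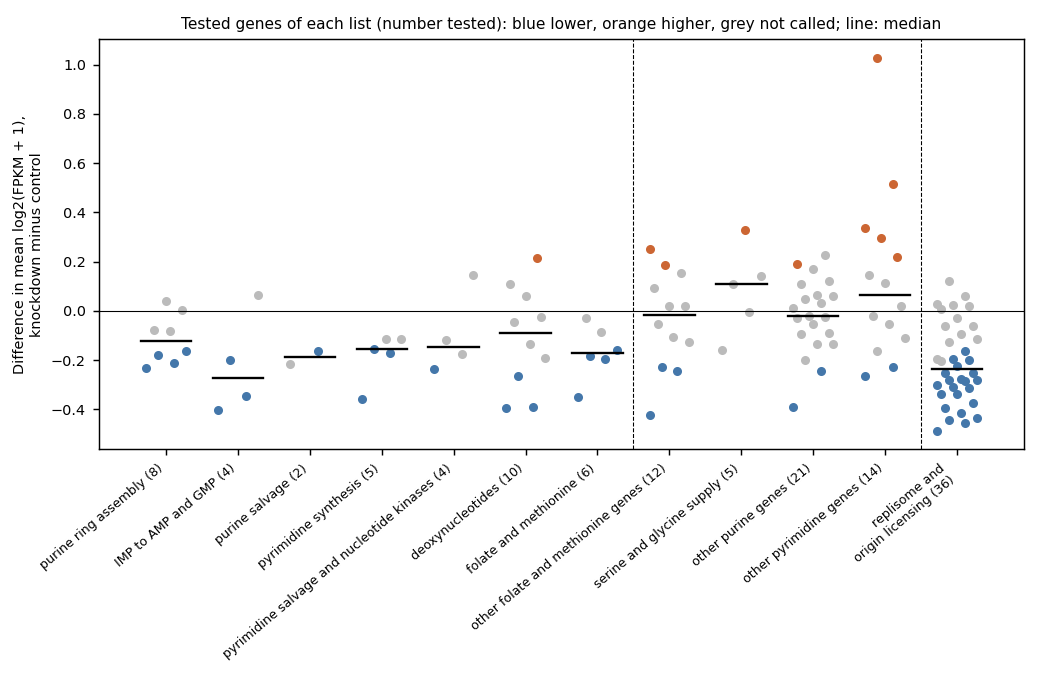
Difference in mean log2(FPKM + 1), knockdown minus control, of each tested gene by list, with the list's median as a line and the number tested in brackets. The 7 member groups left of the first dashed line have medians below 0, the other pathway genes scatter on both sides, and the replication genes at the right have a median of -0.24.

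Of the known regulators MYC, E2F1 and E2F2 fell, and E2F3 and ATF4 were not called. DNA replication genes were lower in the same libraries in 22 of 36 cases (61.1%), where 12.5% of all tested genes were lower. MYC, a transcription factor with many nucleotide synthesis genes among its known targets, was at 35.7, 33.4 and 33.4 FPKM in control libraries and 24.7, 26.2 and 25.4 FPKM in knockdown libraries, a log2 difference of -0.41 (SE 0.041, limma adjusted p = 0.00113). E2F1, which drives S-phase genes, was at 22.5, 24.4 and 22.01 FPKM in control libraries and 19.96, 20.2 and 20.02 FPKM in knockdown libraries, a log2 difference of -0.19 (SE 0.044, limma adjusted p = 0.0234). E2F2, named after its values were seen, was at 3.35, 3.34 and 2.97 FPKM in control libraries and 2.46, 2.47 and 2.49 FPKM in knockdown libraries (limma adjusted p = 0.0176). E2F3, also named after its values were seen, was at 15.03, 14.9 and 15.3 FPKM in control libraries and 14.02, 14.3 and 14.2 FPKM in knockdown libraries with no overlap and was not called (limma adjusted p = 0.114). ATF4, which is known to drive serine and mitochondrial folate enzymes, was at 56.3, 54.5 and 58.6 FPKM in control libraries and 60.7, 60.1 and 65.3 FPKM in knockdown libraries and was not called (limma adjusted p = 0.0745). The list was of replisome and origin licensing genes, all 36 tested. Of these 0 rose, where 12.6% of all tested genes rose, and 14 were not called. Their median log2 difference was -0.24. PCNA, the polymerase clamp, was at 187, 192 and 190.3 FPKM in control libraries and 143, 152 and 144 FPKM in knockdown libraries. The helicase subunit MCM2 was at 51.3, 51.5 and 49.7 FPKM in control libraries and 38.05, 36.95 and 36.5 FPKM in knockdown libraries. MCM2 and RFC4 of this list lie on chromosome 3, where 43.9% of tested genes were called lower. The part of the chromosome in the fall of MCM2 was not tested. The part of these regulators, and of the share of cells in S phase, in the lower enzyme levels was not tested. The calls of MYC, PCNA and MCM2 held in each fit without a library, and those of E2F1 and E2F2 were lost without any knockdown library (up to 0.0743) and without any library other than control replicate 3 (up to 0.0600), limma adjusted p.

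Letters of the motif bound by E2F factors were looked for upstream of the members because E2F1, E2F2, RRM2, TYMS and DUT were all called lower. The search covered the 250 bases before each RefSeq start (GRCh38.p14), on both strands, for TTTCCCGC or TTTGGCGC. The table held 38 of the 41 members, and not ADSL, IMPDH2 or RRM2B. A match was found for 5 members, PRPS2, GART, MTR, TYMS and DUT, all of which were called lower, as were 19 of the 39 tested members. RRM2, one of the genes that prompted the search, was in it and had no match. Whether a match goes with a fall among the members was not tested. Of all 35116 windows searched, 1.93% held a match, and so did 2.36% of the genes they belong to and 4.15% of those that were tested. Of 355 tested genes with a match 20.6% were lower. These 355 come from the 8559 tested genes that had a window, and the share lower among those 8559 was not computed. The 12.5% given above is over all 12191 tested genes, so the 2 shares are not on the same genes. For GART and DUT the match lies upstream of an alternative start and downstream of the other starts listed. Each stretch is 30 bases, 5′ to 3′ on the strand of the gene, with matches to either motif or its reverse complement in capitals:
PRPS2, chrX:12791382-12791411, plus strand: tacatctagccgccgcgcTTTCCCGCtccc
GART, chr21:33542338-33542367, minus strand: agcatTTTGGCGCtcccccccggcgctcct
MTR, chr1:236795120-236795149, plus strand: gaaaagctcccGCGGGAAActggggagcgg
TYMS, chr18:657603-657632, plus strand: gcgggacggccGCGGGAAAaggcgcgcgga
DUT, chr15:48332152-48332181, plus strand: ctgGCGGGAAAtttcggtTTTGGCGCgctc

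The DUT stretch holds both motifs. The E-box letters CACGTG, which read the same on both strands and which MYC and related factors bind, were in the windows of 8 members. Of these UCKL1, MTHFD1 and MTHFD1L were called lower and ATIC, PPAT, DCK, DCTPP1 and DHODH were not called. Of all windows 6.34% held them, as did 11.4% of tested genes, and of 975 tested genes with a match 13.4% were lower. The motifs were chosen with the expression results known, and a match is not a binding site.

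Chromosome 3 as a whole was lower in the knockdown, and 3 members lie on it. Of 718 tested genes of chromosome 3, 43.9% were called lower, against 10.5% of the genes elsewhere, and their median log2 difference was -0.19. IMPDH2, UMPS and GMPS are the members there, and all 3 fell. Their log2 differences were -0.40, -0.36 and -0.20. Without them 16 of 36 tested members fell and 1 rose, with a median of -0.16. The part of the chromosome's lower level in the fall of these 3 genes was not tested.

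The calls differed in how much they rested on the settings and on single libraries. IMPDH1, IMPDH2, GMPS, PAICS, HPRT1, UMPS, RRM2, TYMS and MAT2A, 9 of the 20 called members, passed in each of 13 alternative fits. The other 11 lost the call without at least 1 library. With no filter on low values, where many silent genes enter the test, PRPS2, GART, PFAS, CAD, UCKL1, DUT, MTHFD1L and RRM2B were not called. No called member changed its direction in any of these fits. The count of members called lower was 13, 13 and 20 without control replicate 1, 2 or 3 and 11, 10 and 11 without knockdown replicate 1, 2 or 3. The share of all tested genes called lower without those knockdown libraries was 8.54%, 8.26% and 8.11%, beside 28.2%, 25.6% and 28.2% of the members.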

How the data were processed

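The 6 libraries were made from total RNA extracted with TRIzol, treated with DNase and prepared with a Vazyme VAHTS V6 kit for an Illumina NovaSeq instrument, per the labels' protocols. FastQC 0.11.9, Trim Galore 0.6.5-1 and the build GRCh38 are named in the submitters' processing notes. Not given in the sources used here were the aligner, counter, annotation, strand setting and depth. Values were deposited by the authors as FPKM, fragments divided by gene length and by mapped fragments, for 60623 genes in a table of all samples and once more by sample, with identical values. Because FPKM divide a fixed total, a rise of abundant genes lowers the rest. Mitochondrially encoded genes held 27.5% to 29.7% of summed FPKM.

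A count model was not used, since counts were not part of the data analysed here. limma 3.58.1 in R 4.3.3, with a mean trend and the group as its term, was fitted to log2(FPKM + 1) of 12191 genes with at least 1 FPKM in at least 3 libraries, with Benjamini-Hochberg adjustment over all of them. Intervals are 95% intervals of the model. Named members are, in each step, up to 4 with the smallest adjusted p, any called against the majority, and the paralog pairs. Of the other pathway genes, up to 3 called per list and direction are named. Genes outside this rule are marked, and 1 gene that it names is not reported here. The members and lists were chosen with earlier results of these data known. Positions and exon overlaps come from GENCODE 29 on GRCh38, where 21 of the 41 members share exon bases with another gene. Without a known strand setting, their reads cannot be told apart.

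Depth was estimated as the smallest number of fragments for which low FPKM times exon length gave whole numbers. Within 0.05 of a whole number were 87.6% to 88.3% of values of up to 6.5 fragments, and these depths only describe precision. The model was tested on simulated data. Alternatives were no filter, a 5 FPKM filter, a pseudocount of 0.1, median-of-ratios scaling, rescaling without mitochondrially encoded genes, limma without the trend, the replicate number as a block, each library left out, and the members without chromosome 3. Python 3.11.15 was used for tables, with matplotlib 3.10.9 for plots.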

Additional observations from a re-analysis of the deposited data

How the results depend on the processing

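Members called lower numbered 19, and 12 with no filter, where 41 members and 32280 genes were tested and 3.14% of all genes were lower. They ranged from 10 to 20 when a library was left out. Members called higher numbered 1, and 0 with no filter, 2 with a 5 FPKM filter (CMPK1 beside RRM2B) and 0 to 1 without a library. Without control 3 it was CMPK1 that was called, and RRM2B was not. Other pathway genes called higher numbered 9, and 4 to 8 without a library, and those called lower 7, and 4 to 9. All tested genes called lower numbered 1525, and 1013 with no filter and 964 to 1327 without a library. Those called higher numbered 1542, and 894 to 1352 without a library. Fits without a library have fewer samples, and the filter still asked for 3 libraries. SRSF10 kept its direction and call in every alternative, with log2 differences of -0.85 to -0.78. With a pseudocount of 0.1, median-of-ratios scaling, or rescaling without mitochondrially encoded genes, 19 members were called lower, and without the trend 17. Same-numbered libraries had correlations of deviations of 0.0156, 0.05699 and -0.0715 for numbers 1 to 3. Differently numbered libraries ranged from -0.149 to 0.129. Deviations from means of 3 libraries cannot show whether the replicate numbers pair the samples. With the replicate number as a block, members called lower numbered 13, members higher 1, other pathway genes 5 higher and 6 lower, all genes 1193 higher and 1146 lower, and SRSF10 kept its log2 difference of -0.80. Differences near 0 in members not called changed sign without a library. Over the fits without a library, ADSL ranged from -0.0378 to 0.0919 (-0.0378 without control 1, -0.0032 without knockdown 3), ATIC from -0.0259 to 0.0283 (-0.0172 without control 2, -0.0259 without knockdown 2), DTYMK from -0.00327 to 0.112 (-0.0033 without control 3), DCK from -0.127 to 0.0209 (0.0209 without control 2) and SHMT1 from -0.0507 to 0.00525 (0.0053 without knockdown 2). Depth limits the low genes most, with as few as 14 estimated fragments in a library for CDA, 70 for UPB1 and 89 for ADSL.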
